A study of Mus musculus with 4 samples.

Results

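The myoepithelial contractile genes described here are 32 genes of the smooth muscle contractile apparatus and its regulators, taken as a named list of known smooth muscle genes with no measured value in the rule. The list was nevertheless chosen with earlier results of these data known. All 32 were found among the 17630 genes measured in each library. The study asked how sympathetic nerves act on the mouse mammary gland and its stem cells, and RNA-seq was made of mammary basal cells, which form the outer of the epithelial layers. Of the 4 libraries, 2 are from freshly sorted basal cells and 2 are from basal cells grown into colonies in Matrigel, a basement membrane gel. Each condition has 1 library, so there are no replicates, no test between conditions was made, and the spread between mice or cultures is unknown.

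All 4 libraries are labelled WT and as primary mammary basal cells. The sorted control library has the treatment none. The sorted 6-OHDA library comes from mice treated with 6OHDA (6-hydroxydopamine), a neurotoxin that destroys sympathetic nerve endings and was injected under the skin. The control colony library also has the treatment none, and the SP library has the treatment salbutamol+phenylephrine, adrenergic receptor agonists given together and called SP here. The colony titles carry the numbers 0 and 200 without a unit, and the culture of the control colonies is read from its title and the series' design text, since its other labels are those of the sorted control. The labels give neither age nor strain. The methods name C57BL/6 mice, Actin-DsRed mice, Balb/c-nude mice as hosts of transplants, and an age of 3 weeks for the injection of 6-OHDA during puberty, without tying these to the sequenced cells. The paper's introduction describes outer basal cells as CD24-positive with high CD29 and without lineage markers. The methods list antibodies to CD24, CD29, CD31, CD45 and TER119 for staining the cells, without stating a gate. CD31, CD45 and TER119 are the markers of endothelium, leukocytes and red cells.

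Myoepithelial cells are contractile basal cells that wrap mammary ducts and alveoli and press milk out when oxytocin reaches its receptor on them. Their force comes from smooth muscle actin and myosin: a rise of calcium turns on myosin light chain kinase, which phosphorylates the regulatory light chain, and myosin phosphatase, held back by other kinases, removes the phosphate. Many genes of this apparatus are transcribed through serum response factor (SRF) with cofactors of the myocardin family, which bind at a DNA motif called the CArG box.

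Values are FPKM, fragments per kilobase of transcript scaled to the fragments of the library, so levels of different genes can be set side by side per length. Read counts were not analysed here. The steps between low values put 1 FPKM on a transcript of 1 kilobase at roughly 14.6 to 19.1 fragments in these libraries, for assumed fragment lengths between 150 and 300 bases. Differences are given on the log2(FPKM + 1) scale, which understates those of low genes, and a gene was counted as higher or lower when the difference was over 0.3 in size. Only genes whose mean FPKM over the 2 libraries compared reached 1 were counted. Where only 1 of the 2 values was at or above 1 FPKM, the filter fixed the sign of the difference, and such genes are counted below as passing through 1 library. The comparison of the control colonies with the control sorted cells shares 1 library with each of the other 2 comparisons, so they are not independent.

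The contractile genes summed to 9314 FPKM in the sorted control library and 10281 FPKM in the sorted 6-OHDA library, or 1.83% and 1.99% of all FPKM there. In the colonies they summed to 2910 FPKM without SP and 4115 FPKM with SP, or 0.50% and 0.70%. All 32 genes were above 0 in each of the 4 libraries. Acta2, the smooth muscle alpha actin that serves as the usual marker of myoepithelial cells, ranked 20 among all genes in the sorted control, 9 with 6-OHDA, 188 in the control colonies and 123 with SP. The label of a contractile gene group in basal cells thus matches high levels in the sorted cells and lower ones in the colonies.

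**Figure D1:**
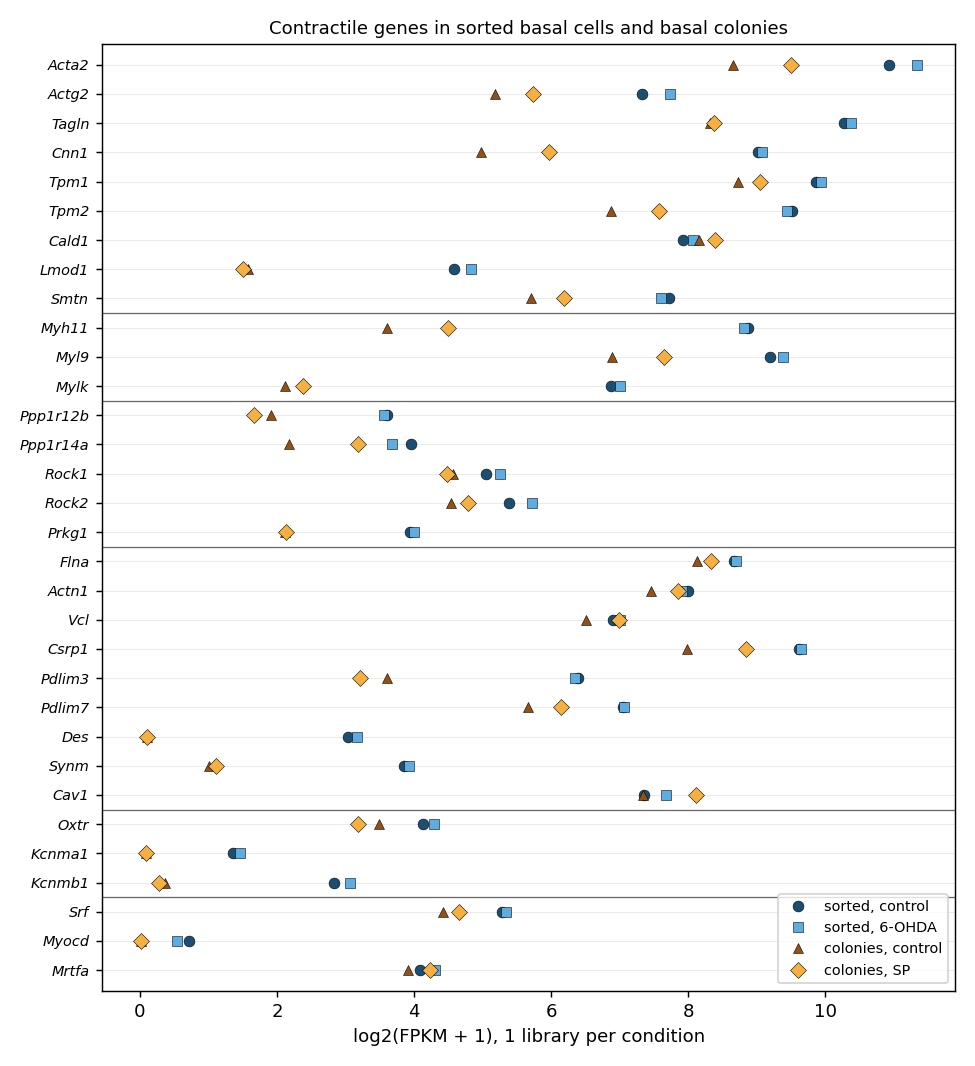
Level of each of the 32 contractile genes in the 4 libraries, as log2(FPKM + 1) on the horizontal axis, with 1 point per library and horizontal lines between roles. The sorted libraries lie to the right of both colony libraries for most genes, with Cald1, Cav1, Vcl and Mrtfa as exceptions, and the SP colonies lie between the control colonies and the sorted cells for Acta2 (722 FPKM), Cnn1 (61.8 FPKM) and Csrp1 (459 FPKM).

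The clearest difference was between the control colonies and the control sorted cells. Of the 30 contractile genes that passed the filter on low values, 27 were lower in the colonies by more than 0.3 (90.0%, beside 26.6% of the 12244 genes tested) and 0 were higher (beside 55.7%). By more than 1, 20 were lower (beside 13.2% of the genes tested) and 0 were higher (beside 30.7%). The median of the 30 was -1.81, with a range from -5.26 to 0.23. Among these, Des and Kcnmb1 passed only through the sorted library, where they were high, so they had to differ. Kcnma1 and Myocd did not pass. Fewer contractile cells and less contractile gene RNA per cell cannot be told apart in bulk libraries, and culture, medium and time in the gel differ together between these 2 libraries.

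Over all genes tested in this comparison the median difference was 0.45, and genes higher in the colonies made up 67.7% of the genes past 0.3, against 50.1% after scaling by the median ratio and 55.1% after quantile normalization. Relative to that median, 0 of the 30 contractile genes lay above it and 30 below. Cald1, the 1 contractile gene with a higher value in the control colonies, stood at -0.22 relative to the all-gene median.

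Between the SP colonies and the control colonies, 15 of the 28 contractile genes that passed the filter were higher with SP (53.6%, beside 11.7% of the 11849 genes tested) and 2 were lower (7.14%, beside 19.8%). Only Ppp1r14a was higher by more than 1 (beside 2.0% of the genes tested), and 0 genes were lower by more than 1 (beside 1.33%). The median of the 28 was 0.32, where that of all genes tested was -0.07. The genes higher by more than 0.3 included the actins, calponin, the myosin heavy and light chains and the LIM protein Csrp1, and those lower were Pdlim3 and Oxtr. Of the genes just past 0.3, Tpm1 came to 0.29 and Mrtfa to 0.30 after rescaling to the same sum. Over all genes tested, those higher made up 37.1% of the genes past 0.3, and 49.8% after scaling by the median ratio. The filter left out Des, Kcnma1, Kcnmb1 and Myocd, which were below 1 FPKM in both colony libraries.

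In the sorted cells, 4 of the 31 contractile genes that passed the filter were higher in the 6-OHDA library (12.9%, beside 15.8% of the 11749 genes tested) and 0 were lower (beside 8.35%). By more than 1, 0 were higher (beside 1.05%) and 0 were lower (beside 0.902%). The median of the 31 was 0.10, where that of all genes tested was 0.06, and the range was from -0.28 to 0.40. The share of contractile genes higher was thus near that of all genes. Genes higher made up 65.4% of all genes past 0.3, against 50.5% after scaling by the median ratio and 47.4% after quantile normalization. The 4 genes were Acta2, Actg2, Rock2 and Cav1, and the filter left out Myocd. After median ratio scaling Rock2 (0.27) and Cav1 (0.26) were within 0.3, and Ppp1r14a was lower (-0.34).

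**Figure D2:**
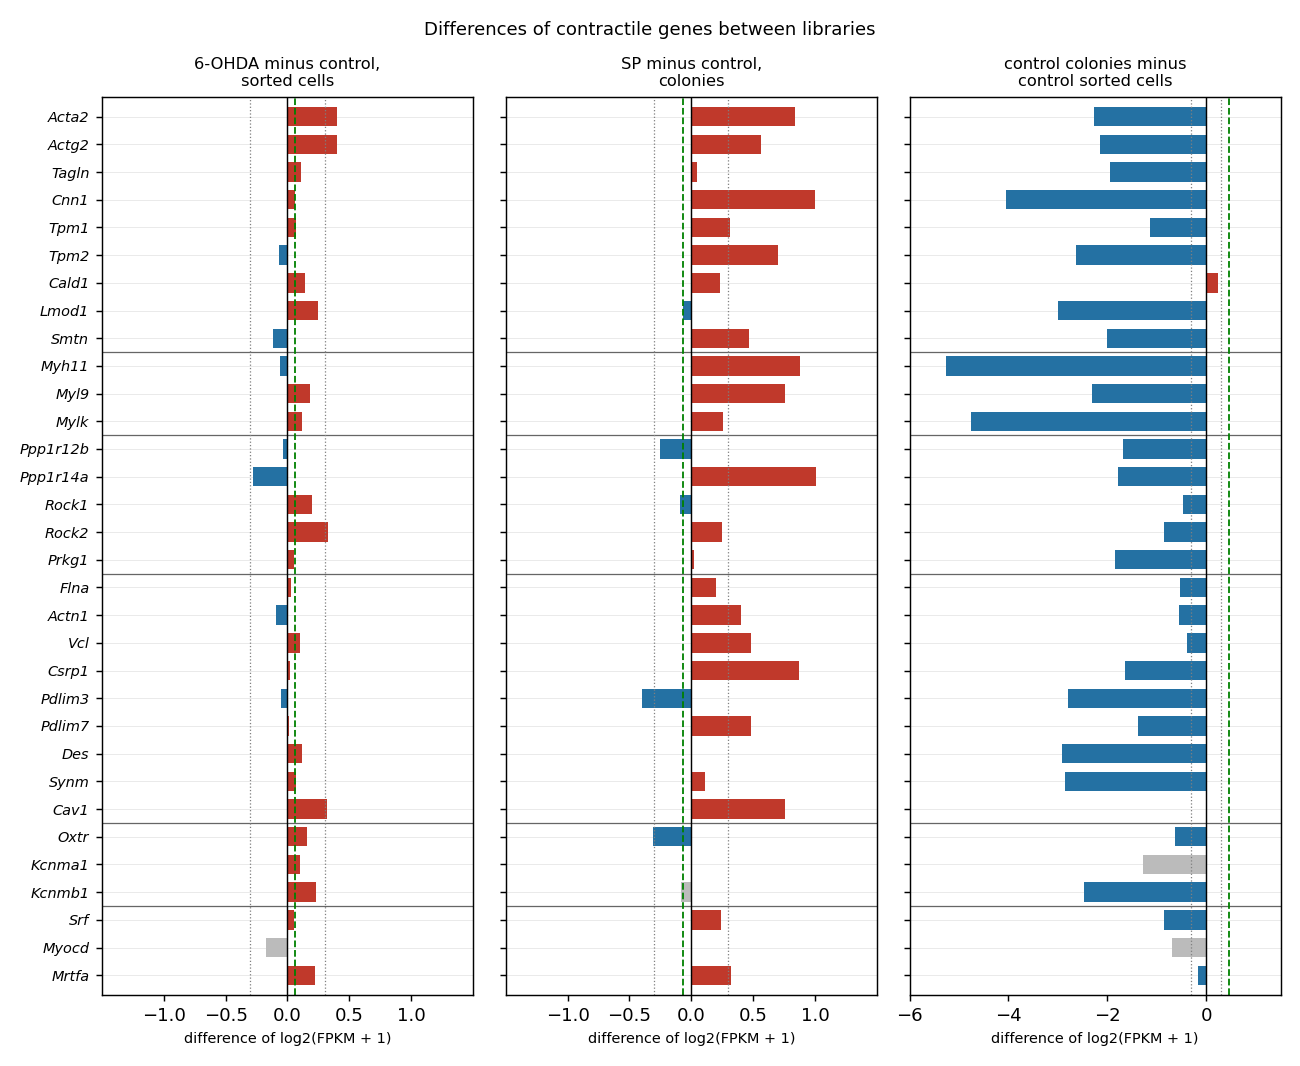
Differences of log2(FPKM + 1) of the 32 contractile genes in the 3 comparisons, with 1 bar per gene, dotted lines at 0.3 in size, a dashed line at the median of all genes tested, and grey bars for genes below the filter. The right panel has a wider axis than the others. Bars of the 6-OHDA comparison stay between -0.28 and 0.40, those of the SP comparison run from -0.40 to 1.01, and those of the control colonies against the control sorted cells reach -5.26.

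The thin filament genes encode actin, tropomyosin and the proteins bound along them. Acta2 (NCBI Gene 11475, chr19:34240336-34255585 in GRCm38) was listed at 1949 FPKM in the sorted control, 2575 in the sorted 6-OHDA library, 402 in the control colonies and 722 with SP. It was therefore highest in the 6-OHDA library and lowest in the control colonies, with log2 differences of 0.40 with 6-OHDA, 0.84 with SP and -2.28 between the control colonies and the control sorted cells. The control colonies held 20.6% and the SP colonies 37.1% of the FPKM of the sorted control. Actg2, the enteric smooth muscle gamma actin, was listed at 159 FPKM in the sorted control, 211 with 6-OHDA, 35.2 in the control colonies and 52.5 with SP. Its differences followed the order of Acta2 in sign, with 0.40, 0.56 and -2.15.

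Calponin 1, encoded by Cnn1 (NCBI Gene 12797, chr9:22099221-22109221), binds actin and restrains the myosin ATPase. Its FPKM was 515 in the sorted control, 537 with 6-OHDA, 30.4 in the control colonies and 61.8 with SP. The sorted control exceeded the control colonies 16.9-fold, the largest ratio among the 9 thin filament genes, and the SP difference was 1.0. Tagln, which encodes the related actin-bundling protein transgelin, was listed at 1233 FPKM in the sorted control, 1330 with 6-OHDA, 318 in the control colonies and 330 with SP. Unlike Cnn1, it thus differed little between the colony libraries (log2 difference 0.05), although it was also lower in colonies than in sorted cells (-1.95).

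The tropomyosins coil along actin and set where myosin can bind. Tpm1 stood at 932 FPKM in the sorted control, 980 with 6-OHDA, 423 in the control colonies and 526 with SP. Tpm2 stood at 727, 690, 116 and 190 FPKM in the same order. Tpm2 was further below the sorted control in the control colonies (-2.63) than Tpm1 (-1.14), and its difference with SP was also larger (0.70) than that of Tpm1 (0.31). With this, Tpm1 was the most abundant contractile gene of the control colonies and Acta2 that of the other 3 libraries.

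Smoothelin (Smtn), a protein of contractile smooth muscle cells, had 209 FPKM in the sorted control, 193 with 6-OHDA, 51.3 in the control colonies and 71.5 with SP. Leiomodin 1 (Lmod1), which nucleates actin filaments in smooth muscle, had 22.8, 27.3, 2.0 and 1.85 FPKM. The colonies held 8.76% of the sorted control level of Lmod1 without SP and 8.10% with it, so this gene was not higher with SP (-0.07), whereas Smtn was (0.47). Caldesmon (Cald1), which has a smooth muscle and a widespread non-muscle form from the same gene, had 242 FPKM in the sorted control, 267 with 6-OHDA, 285 in the control colonies and 334 with SP. Gene-level values do not separate these forms. In all, 8 of the 9 thin filament genes were lower in the control colonies than in the control sorted cells by more than 0.3, with a median of -2.15 (beside 26.6% of all genes tested), and 6 of 9 were higher with SP, with a median of 0.47 (beside 11.7%).

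The role of myosin motor holds the chains Myh11 and Myl9 and the kinase Mylk. By the median of a role, these 3 genes were lowest in the control colonies against the sorted control (-4.76, the value of Mylk). Myl9, however, differed less than Cnn1 or Lmod1. Myh11, the smooth muscle myosin heavy chain (NCBI Gene 17880, chr16:14194527-14292188), was listed at 467 FPKM in the sorted control, 449 with 6-OHDA, 11.2 in the control colonies and 21.5 with SP. This is a 41.7-fold ratio between the control libraries (log2 difference -5.26), the largest difference of the 32 genes in size on the log2(FPKM + 1) scale. By the plain ratio of FPKM, Des (90.0-fold) and Myocd (64.0-fold), both below 0.1 FPKM in the control colonies, were above it. With SP the level was higher by 0.88 on the log2 scale, yet it was only 4.60% of the sorted control. Mylk, the myosin light chain kinase (NCBI Gene 107589, chr16:34745199-35002436), was listed at 116, 127, 3.33 and 4.18 FPKM. Its ratio between the control libraries was 34.9-fold, and the SP difference (0.26) was within 0.3. Myl9, the regulatory light chain on which this kinase acts, was listed at 586 FPKM in the sorted control, 663 with 6-OHDA, 117 in the control colonies and 198 with SP, with differences of 0.18, 0.76 and -2.32. The light chain thus held a larger part of its sorted level in the control colonies (19.9%) than the heavy chain (2.40%) or the kinase (2.86%).

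In the sorted libraries the 5 other regulators of light chain phosphorylation among the contractile genes were less abundant than Myh11, Myl9 and Mylk. Ppp1r12b, a targeting subunit of myosin phosphatase found in muscle, was at 11.1 FPKM in the sorted control, 10.8 with 6-OHDA, 2.77 in the control colonies and 2.16 with SP. Ppp1r14a, which encodes CPI-17, an inhibitor of that phosphatase, was at 14.6, 11.8, 3.53 and 8.10 FPKM. It had the lowest difference of the 31 genes compared with 6-OHDA (-0.28) and the highest of the 28 compared with SP (1.01), and Ppp1r12b was not higher with SP (-0.25). Prkg1, the cyclic GMP-dependent kinase that relaxes smooth muscle, was at 14.4 FPKM in the sorted control, 15.0 with 6-OHDA, 3.32 in the control colonies and 3.39 with SP.

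The kinases encoded by Rock1 and Rock2, which phosphorylate the phosphatase subunit and hold it back, are made in most cell types. Rock1 was at 32.2, 37.2, 22.8 and 21.4 FPKM and Rock2 at 40.9, 51.5, 22.2 and 26.5 FPKM, in the order sorted control, sorted 6-OHDA, control colonies and SP colonies. Both were lower in the control colonies than in the sorted control, by smaller differences (-0.48 and -0.85) than Prkg1 (-1.84), Ppp1r12b (-1.68) or Ppp1r14a (-1.78). All 5 genes of this role were lower in the control colonies by more than 0.3 (beside 26.6% of all genes tested), 1 was higher with SP (beside 11.7%), and 1, Rock2 (0.33), was higher with 6-OHDA (beside 15.8%).

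A further group of proteins anchors or crosslinks actin or lies at the membrane. Flna, the actin crosslinker filamin A, was at 406 FPKM in the sorted control, 415 with 6-OHDA, 279 in the control colonies and 321 with SP. Actn1, alpha-actinin 1, was at 254, 240, 174 and 229 FPKM, and vinculin (Vcl), which ties actin to integrin adhesions, was at 118, 127, 90.0 and 126 FPKM. Their differences between the control libraries were -0.54, -0.55 and -0.39, and with SP they were 0.20, 0.40 and 0.48. The SP colonies held 106% of the sorted control level of Vcl and 90.0% of that of Actn1.

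Csrp1, a LIM protein of smooth muscle, was at 786 FPKM in the sorted control, 798 with 6-OHDA, 251 in the control colonies and 459 with SP. Pdlim7, a PDZ and LIM protein of actin fibres, was at 131, 133, 49.5 and 69.5 FPKM, and its relative Pdlim3 was at 83.2, 80.2, 11.2 and 8.25 FPKM. All 3 were lower in the control colonies (-1.65, -1.39 and -2.79), but with SP Csrp1 (0.87) and Pdlim7 (0.48) were higher and Pdlim3 (-0.40) was lower. The muscle intermediate filament genes were low in the colonies. Des, which encodes desmin, was at 7.20 FPKM in the sorted control, 7.94 with 6-OHDA and 0.08 in each colony library. Synm, which encodes synemin, was at 13.5, 14.3, 1.01 and 1.17 FPKM. Caveolin 1 (Cav1), which forms the membrane pits where many receptors sit, was at 163 FPKM in the sorted control, 204 with 6-OHDA, 161 in the control colonies and 274 with SP. It did not differ between the control libraries by more than 0.3 (-0.01; -0.52 after scaling by the median ratio) and was higher with 6-OHDA (0.32) and with SP (0.76).

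Oxtr, the oxytocin receptor (NCBI Gene 18430, chr6:112473683-112491035), was listed at 16.5 FPKM in the sorted control, 18.6 with 6-OHDA, 10.2 in the control colonies and 8.07 with SP. Its colony level was 62.0% of the sorted control without SP and 48.9% with SP, so the receptor was closer to its sorted level than the myosin heavy chain. The SP difference (-0.31) was just past 0.3 and came to -0.24 after scaling by the median ratio. The large-conductance potassium channel, which lets smooth muscle relax, was almost absent from the colonies. Its pore subunit gene Kcnma1 was listed at 1.56, 1.75, 0.06 and 0.06 FPKM and its smooth muscle subunit gene Kcnmb1 at 6.13, 7.36, 0.29 and 0.22 FPKM.

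Srf and its cofactor gene Mrtfa differed less between sorted cells and colonies than the actin, calponin and myosin genes. Srf was listed at 38.0 FPKM in the sorted control, 39.5 with 6-OHDA, 20.5 in the control colonies and 24.3 with SP. Mrtfa, an SRF cofactor that is held in the cytoplasm by free actin, was listed at 16.0, 18.8, 14.1 and 17.8 FPKM. Between the control libraries Srf differed by -0.86 and Mrtfa by -0.17, and with SP they differed by 0.24 and 0.32. The difference of Mrtfa between the control libraries depended on the scaling, with -0.35 after rescaling to the same sum, -0.64 after median ratio scaling and -0.56 after quantile normalization. Myocd, the muscle-restricted cofactor myocardin, was low, with 0.64 FPKM in the sorted control, 0.46 with 6-OHDA and 0.01 in each colony library. Transcript levels do not measure where Mrtfa protein lies in the cell.

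A list of 53 other contractile apparatus genes, mostly with general cell functions, was compared in the same way. Of the 50 that passed the filter, 17 were higher (beside 55.7% of all genes tested) and 19 were lower (beside 26.6%) in the control colonies than in the control sorted cells, with a median of -0.09 where that of all genes was 0.45, and 3 passed through 1 library. The genes with the largest differences were Flnc, the muscle filamin, listed at 152 FPKM in the sorted control, 120 with 6-OHDA, 2.59 in the control colonies and 2.68 with SP (-5.41), Acta1, the skeletal muscle actin, listed at 0.46, 2.89, 19.9 and 36.8 FPKM (3.84), and Tns1, listed at 27.3, 29.2, 2.94 and 1.04 FPKM (-2.84). The list's most abundant genes had small differences by comparison. Myl6, the non-muscle and smooth muscle essential light chain, was listed at 1945 FPKM in the sorted control and 1511 in the control colonies, and the cytoplasmic actin Actg1 at 1480 and 1955 FPKM. With SP, 12 of 48 were higher (beside 11.7%) and 9 were lower (beside 19.8%), 1 of the 48 passing through 1 library, led by Gucy1b1 (from 5.13 to 1.74 FPKM), Cavin1, the coat protein of caveolae (from 45.8 to 94.6 FPKM), and Tns1. With 6-OHDA, 10 of 51 were higher (beside 15.8%) and 1 was lower (beside 8.35%), led by Actc1 (from 0.14 to 2.40 FPKM) and Acta1, which both passed only through the 6-OHDA library, and Cav2 (from 25.9 to 40.7 FPKM). Actc1 was listed at 0 in the SP colonies.

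A list of 21 other genes known as targets or cofactors of SRF was compared in the same way. All 21 passed the filter between the control libraries, with 9 higher (beside 55.7% of all genes tested) and 10 lower (beside 26.6%) in the colonies and a median of 0.13 where that of all genes was 0.45. Of these, 2 passed only through the sorted library (Gata6 and Foxf1, named after their values were seen). Ankrd1 was higher in the colonies (1.80 and 24.0 FPKM in the sorted control and the control colonies), and Itga5 (57.6 and 13.4 FPKM) and Myo1e (102.8 and 29.5 FPKM) were lower. With SP, 5 of 19 were higher (beside 11.7%) and 4 were lower (beside 19.8%). Ccn1 and Ccn2, matricellular protein genes that SRF and YAP both drive, differed the other way from most contractile genes there, with 412 and 166 FPKM for Ccn1 and 241 and 102 FPKM for Ccn2 without and with SP, while Tagln2 went from 224 to 363 FPKM. With 6-OHDA, 3 of 21 were higher (beside 15.8%) and 1 was lower (beside 8.35%), and the largest differences were those of Amotl2 (-0.56), Ccn2 (0.52) and Mrtfb (0.36). Cfl1, the actin-severing cofilin, was the most abundant gene of this list in each library, from 603 to 865 FPKM.

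Receptors that drive contraction were mostly low. Of 26 such genes other than Oxtr, 12 passed the filter between the control libraries, with 3 higher (beside 55.7% of all genes tested) and 6 lower (beside 26.6%) in the colonies. Of the 12, 5 passed through 1 library, S1pr3 and Ednrb among them, so the filter fixed their sign. S1pr3, a sphingosine phosphate receptor, was listed at 17.3 FPKM in the sorted control, 15.1 with 6-OHDA, 0.67 in the control colonies and 3.62 with SP, and the endothelin receptor gene Ednrb at 7.38, 17.8, 0.13 and 0.12 FPKM. Lpar1 was higher in the control colonies (15.9 FPKM) than in the sorted control (1.64 FPKM). With SP, 2 of 8 were higher (beside 11.7%) and 4 were lower (beside 19.8%), 2 of the 8 passing through 1 library, led by S1pr3 (1.47, which passed only through the SP library), Chrm3 (-0.90) and Ednra (0.79). With 6-OHDA, 4 of 13 were higher (beside 15.8%) and 1 was lower (beside 8.35%), 2 of the 13 passing through 1 library, led by Ednrb (1.16), the vasopressin receptor gene Avpr1a (0.66) and P2ry2 (0.55). The most abundant gene of the list was F2r in both sorted libraries (24.3 and 21.8 FPKM), Lpar1 in the control colonies and S1pr2 with SP (9.12 FPKM). In the colonies Adra1b, Chrm2 and P2rx1 were listed at 0 in both libraries, Hrh1 at 0 without SP, and Adrb3 and Ptger3 at 0 with SP.

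Basal keratins show how far the contractile genes followed the other markers of this layer. Krt5 was listed at 1002 FPKM in the sorted control, 869 with 6-OHDA, 1888 in the control colonies and 4579 with SP, and Krt14 at 3595, 2633, 3298 and 6920 FPKM. The control colonies thus held Krt5 above and Krt14 near the level of the sorted control, while most contractile genes were lower. Of 8 basal markers, 1 was higher in the control colonies (Krt5, 0.91, beside 55.7% of all genes tested) and 3 were lower (beside 26.6%; Krt17, -1.64, Itga6, -0.86, and Lgals7, -0.42). In the same list 5 were higher (beside 11.7%) and 0 lower (beside 19.8%) with SP, led by Lgals7 (1.4), Krt17 (1.38) and Krt5 (1.28), and 0 were higher (beside 15.8%) and 2 lower (beside 8.35%) with 6-OHDA (Krt17, -0.46, and Krt14, -0.45). Their sum was 8116 FPKM in the sorted control, 6457 with 6-OHDA, 7067 in the control colonies and 15106 with SP, with Krt14 the most abundant in each.

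The sum of Krt5 and Krt14 was higher with SP by 1.15 on the log2 scale, where the median of the contractile genes was 0.32. It was lower with 6-OHDA (-0.39), where that median was 0.10, and differed by 0.17 between the control libraries, where that median was -1.81.

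Markers of luminal epithelium were higher in the control colonies, with 9 of 12 higher (beside 55.7% of all genes tested) and 1 lower (beside 26.6%), and a median of 0.86 where that of all genes was 0.45. Whether luminal cells had a part in the lower contractile levels was not tested. Krt8 was the most abundant in each library, with 560 FPKM in the sorted control, 545 with 6-OHDA, 698 in the control colonies and 683 with SP, and Krt18 stood at 375, 295, 503 and 504 FPKM. The list summed to 1165, 1060, 2121 and 2000 FPKM in the same order, and none of its genes was at 0. Wfdc18 (32.3 and 567 FPKM in the control libraries), Elf5 (0.63 and 22.5 FPKM, passing only through the colonies) and Prom1 (1.97 and 12.7 FPKM) had the largest differences. With SP, 1 of 12 was higher (beside 11.7%) and 4 were lower (beside 19.8%), led by Areg (1.4), Esr1 (-0.69) and Pgr (-0.47), and with 6-OHDA 1 of 11 was higher (beside 15.8%) and 3 were lower (beside 8.35%), led by Cd14 (-0.55), Prlr (-0.53) and Wfdc18 (0.39).

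Vascular smooth muscle and pericytes express many of the same contractile genes, and their markers were also present in the sorted libraries. Of the 12 markers, 9 passed the filter between the control libraries, with 1 higher (beside 55.7% of all genes tested) and 8 lower (beside 26.6%) in the colonies, and 6 of them passed only through the sorted library and so had to be lower. Rgs5 was listed at 19.2 FPKM in the sorted control, 27.1 with 6-OHDA, 0.10 in the control colonies and 0.14 with SP, Gja4 at 10.1, 10.8, 0 and 0.11 FPKM, and Rgs4 at 10.1, 12.3, 0.10 and 0.36 FPKM. The list summed to 294, 247, 159 and 133 FPKM, with Mcam, which basal cells also express, the most abundant in each library (221, 162, 133 and 114 FPKM). Kcnj8 and Olfr558 were at 0 in both colony libraries, Gja4 in the control colonies and Higd1b with SP. The part of these cells in the levels of the sorted libraries and in the difference from the colonies was not tested. With 6-OHDA 1 of 10 markers was higher (Rgs5, 0.47, beside 15.8%) and 1 lower (Mcam, -0.45, beside 8.35%). With SP 0 of 3 were higher (beside 11.7%) and 2 lower (beside 19.8%), Pdgfrb (-0.68), which passed only through the control colonies and had to be lower, and Notch3 (-0.36).

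An antibody to CD31, the product of Pecam1, was among those listed for staining the cells. Endothelial markers were also lower in the colonies than in the sorted cells, with a median of -4.24. All 12 passed the filter between the control libraries and all 12 were lower in the colonies (beside 26.6% of all genes tested). Of these, 8 were below 1 FPKM in the colonies and passed only through the sorted library, so they had to be lower. Pecam1 was the most abundant in the sorted libraries (107 FPKM in the control and 93.0 with 6-OHDA, with 1.39 and 1.56 in the colonies), followed by Cdh5 (77.9, 69.4, 0.12 and 0.12 FPKM). Cldn5 stood at 37.6, 43.4, 0.10 and 0 FPKM. The list summed to 403, 408, 20.6 and 15.9 FPKM, with Erg the most abundant in the control colonies (10.3 FPKM) and Flt1 with SP (8.87 FPKM), where Cldn5 and Tie1 were at 0. With 6-OHDA 2 of 12 were higher (beside 15.8%) and 0 lower (Emcn, 0.49, and Tek, 0.43), and with SP 2 of 4 were higher (beside 11.7%) and 1 lower (beside 19.8%), led by Erg (-2.23), Egfl7 (0.74) and Flt1 (0.39).

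Fibroblast markers, by contrast, moved in each comparison, and their part in the contractile gene differences was not tested. The 12 genes summed to 218 FPKM in the sorted control, 448 with 6-OHDA, 372 in the control colonies and 271 with SP. With 6-OHDA 9 of 12 were higher (beside 15.8% of all genes tested) and 0 lower (beside 8.35%), 2 of the 12 passing only through the 6-OHDA library, led by Col3a1 (2.26), Col1a1 (1.91) and Col1a2 (1.68). With SP 1 of 8 was higher (beside 11.7%) and 6 were lower (beside 19.8%), led by Col1a2 (-2.13), Col6a3 (-1.32) and Col3a1 (-1.19). The filter fixed the sign of Col3a1, which passed only through the control colonies, and of the 1 higher gene (Thy1, named after its values were seen), which passed only through the SP library. Between the control libraries 2 of 10 were higher (beside 55.7%) and 6 lower (beside 26.6%) in the colonies, 3 of the 10 passing only through the sorted library. There Dcn stood at 1.52 FPKM against 115 in the sorted control and Fn1 at 327 against 19.6 FPKM. Dcn was the most abundant in both sorted libraries and Fn1 in both colony libraries, and Dpt, Pi16 and Fap were at 0 in the SP colonies.

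Leukocyte markers were low throughout, with sums of 17.5, 15.7, 4.15 and 4.90 FPKM over 12 genes, and Cd68 the most abundant in each library (2.70 to 6.05 FPKM). Ptprc, Adgre1, Cd3e and Tyrobp were at 0 in both colony libraries, Csf1r and Itgam in the control colonies, Fcer1g in the SP colonies and Cd3e in the 6-OHDA library. Of the leukocyte markers past the filter, 4 of 4 were lower in the control colonies (beside 26.6% of all genes tested; Lyz2, Cd79a and Cd52 most, all 3 of which passed only through the sorted library and had to be lower), 0 of 1 differed with SP by more than 0.3, and with 6-OHDA 0 of 6 were higher and 1 was lower (Cd52, -0.37, beside 8.35%), 1 of the 6 passing through 1 library.

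Skeletal muscle genes were fixed as a check for muscle near the gland. They summed to 3.66, 10.2, 25.3 and 43.7 FPKM, of which Acta1 made up 19.9 and 36.8 FPKM in the colonies. Other genes of this list stayed at or below 2.96 FPKM (Mb in the SP colonies). Pvalb was at 0 in 3 libraries and Tnnt3 in both colony libraries. With 6-OHDA 3 of 3 skeletal muscle genes past the filter were higher (Acta1, Mylpf and Mb, beside 15.8% of all genes tested), of which Acta1 and Mylpf passed only through the 6-OHDA library and had to be higher. With SP 3 of 4 were higher (Acta1, Mb and Mylpf, beside 11.7%). In the control colonies 3 of 3 were higher (Acta1, Tnni2 and Mb, beside 55.7%), of which Acta1 and Tnni2 passed only through the colonies and had to be higher. Acta1, which is also among the other contractile apparatus genes, therefore stood apart from the other skeletal muscle genes in the colonies.

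The sorted 6-OHDA library also held salivary gland secretory transcripts, which bear on the scale of all its FPKM values. The 5 genes of that list summed to 15342 FPKM or 2.96% of the library, with Bpifa2 at 7277, Smr3a at 3086 and Dcpp1 at 2733 FPKM, against sums of 1.3, 1.14 and 0.50 FPKM in the sorted control, the control colonies and those with SP, where Amy1 was the most abundant. In those 3 libraries Smr3a, Dcpp1 and BC037156 were at 0, and Bpifa2 was at 0 in the sorted control and the SP colonies. All 5 were higher with 6-OHDA, 4 of them passing only through that library, none passed the filter in the SP comparison, and 0 of 1 differed between the control libraries. When the libraries were scaled to the same sum without these genes, the median difference of the contractile genes with 6-OHDA was 0.12 in place of 0.10. After median ratio scaling that median was 0.04. Whether cells that came with these salivary transcripts added to the contractile gene levels of the 6-OHDA library was not tested.

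The actins of muscle are close copies of each other, so reads could be shared among them and the values of the scarce ones are uncertain. In the GENCODE transcripts the coding sequences of Acta2 and Actg2 were 84.2% identical, with a longest identical stretch of 29 bases, and those of Acta2 and Acta1 were 85.4% identical, also with 29 bases at most. Actg2 and Actc1 shared the longest stretch of the pairs compared, 38 bases. Acta1 stood at 19.9 FPKM beside 402 FPKM of Acta2 in the control colonies, and at 0.46 FPKM beside 1949 FPKM of Acta2 in the sorted control, so the levels of both genes went opposite ways between the control libraries. With SP they differed alike (0.85 for Acta1 and 0.84 for Acta2), and with 6-OHDA both were higher (1.41 and 0.40). The part of shared reads in these values was not tested. The tropomyosin and light chain families (Tpm1 to Tpm4, Myl12a and Myl12b) carry the same uncertainty, which was not measured here.

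The promoters of the contractile genes were searched for the CArG box in the 250 bases before each start listed in the RefSeq promoter table of GRCm38.p6. A listed start can lie inside the span of its gene, where other transcripts begin farther out. Of the 32 genes, 27 have a promoter in the table, with 33 promoters in all, and Actg2, Tagln, Myh11, Myocd and Rock1 do not. The motif reads the same on both strands. It was found in 3 of the 33 promoters (9.09%), those of Myl9, Vcl and Srf, where 1.47% of all 32851 promoters held it. The list was chosen as smooth muscle genes, so this share does not bear on the differences between libraries. Between the control libraries Myl9 differed by -2.32, Vcl by -0.39 and Srf by -0.86, where the median of the contractile genes was -1.81. A looser form, in which 1 of the inner A or T bases is G or C, was found in 5 of 33 (15.2%), those of Myl9, Synm, Pdlim3, Mrtfa and Acta2, where 7.24% of all promoters held it. These matches describe letters in a short window and are not measured binding. The exact boxes lie at chr2:156775293-156775322 (plus strand) for Myl9, chr14:20929161-20929190 (plus strand) for Vcl, and chr17:46556225-46556254 and chr17:46556205-46556234 (minus strand) for Srf, each printed 5′ to 3′ as a window of 30 bases with the box in capitals. The windows of Srf lie inside the RefSeq span of the gene, and none of these 4 windows overlaps a GENCODE exon.
Myl9: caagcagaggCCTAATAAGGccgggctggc
Vcl: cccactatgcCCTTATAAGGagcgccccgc
Srf first box: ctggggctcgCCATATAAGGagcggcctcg
Srf second box: agcggcctcgCCATAAAAGGaaacattgta

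The looser boxes of Acta2 are shown because it is the most abundant contractile gene of the sorted cells. They begin 84 and 34 bases before the listed start, on the minus strand, and are printed 5′ to 3′ in windows of 30 bases with the box in capitals (chr19:34255438-34255467 and chr19:34255388-34255417). Both windows lie wholly in GENCODE exons and inside the RefSeq span of the gene.
Acta2 first box: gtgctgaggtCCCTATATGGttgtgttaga
Acta2 second box: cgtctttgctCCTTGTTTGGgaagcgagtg

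Mylk, Cnn1 and Lmod1 had the largest differences between the control libraries among the contractile genes with a promoter in the table and a mean of at least 10 FPKM over the 4 libraries. Neither form of the box was found in their 250 bases, which says only that these letters are not there. The 200 bases farthest from the listed start are printed 5′ to 3′, all on the plus strand, at chr16:34784700-34784899 for Mylk, chr9:22099003-22099202 for Cnn1 and chr1:135324563-135324762 for Lmod1. That of Mylk lies inside the RefSeq span of the gene, and none of the 3 overlaps a GENCODE exon.
Mylk: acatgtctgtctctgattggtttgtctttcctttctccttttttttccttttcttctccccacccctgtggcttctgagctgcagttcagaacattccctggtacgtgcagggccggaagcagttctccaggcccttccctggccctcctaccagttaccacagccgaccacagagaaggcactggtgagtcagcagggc
Cnn1: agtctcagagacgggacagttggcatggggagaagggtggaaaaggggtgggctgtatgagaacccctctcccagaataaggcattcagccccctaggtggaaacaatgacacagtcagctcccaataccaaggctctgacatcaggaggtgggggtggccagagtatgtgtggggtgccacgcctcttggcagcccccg
Lmod1: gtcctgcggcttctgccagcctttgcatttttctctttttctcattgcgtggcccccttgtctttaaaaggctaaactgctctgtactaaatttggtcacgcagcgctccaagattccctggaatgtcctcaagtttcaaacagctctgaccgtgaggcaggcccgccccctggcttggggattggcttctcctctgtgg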

How the data were processed

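The authors deposited FPKM values with 2 decimals for 17630 genes in each of the 4 libraries. The submitters' processing notes name Bowtie2, RSEM 1.3.1, DESeq2 1.4.5 and the build mm10, with no order of steps. Gene numbers were matched to NCBI Gene identifiers in the RefSeq table of GRCm38.p6 (17512 matched). Each comparison took the difference of log2(FPKM + 1) between 2 libraries, among genes with a mean FPKM of 1 or more there, with a threshold of 0.3 in size. No count test fits FPKM values, and no p-value was computed with 1 library per group. The contractile genes and the other gene lists were chosen with earlier results of these data known. Genes were named by a rule: all 32 contractile genes, the 3 genes of each other list with the largest difference per comparison, its most abundant gene and its genes at 0, and Krt5, Krt14, Krt8 and Krt18. Values of some listed genes are not reported here. Depth was estimated from the steps of low values of genes with 1 transcript in GENCODE vM21. The code that computes the differences was tested on simulated data with known answers, which is no test between conditions. Alternatives were other pseudocounts, filters, scalings and thresholds. Python 3.11.15, numpy 2.4.6, pandas 2.3.3, matplotlib 3.10.9 and Biopython 1.88 were used.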

Additional observations from a re-analysis of the deposited data

How the results depend on the processing

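With 1 library per group no replicate could be left out, and no paired analysis was possible because each group has 1 library. The direction of the median over the contractile genes held in all 3 comparisons with the other pseudocounts and filters. It also held after rescaling to the same sum, median ratio scaling and quantile normalization. The 6-OHDA median was 0.04 after median ratio scaling, in place of 0.10. The contractile genes were also divided by the sum of Krt5 and Krt14. This ratio, chosen after the values were seen, shifts all genes of a comparison alike. By it the SP median was -0.81, with 1 gene above 0 and 27 below. The 6-OHDA median was 0.5, with 31 genes above 0 and 0 below. The keratin sum differed by -0.39 there and the lowest contractile gene by -0.28, so this choice fixed the sign of all 31. Other basal markers did not all follow these 2 keratins with 6-OHDA. Named after their values were seen, they were Trp63 (0.29), Itgb1 (0.26), Itga6 (0.10), Lgals7 (-0.02), Cd24a (-0.13) and Krt17 (-0.46). Between the control libraries the median was -2.19, with 1 gene above 0 and 29 below. With the other pseudocounts and scalings, the keratin ratio aside, no single gene past 0.3 reversed its sign. In the 6-OHDA comparison, where 4 contractile genes were higher and 0 lower, 1 was lower with a pseudocount of 0.1, after rescaling to the same sum, after median ratio scaling and after quantile normalization; 2 were higher after median ratio scaling, and 0 at a threshold of 1. In the SP comparison, where 15 were higher and 2 lower, 0 were lower with a pseudocount of 5, 1 was lower after median ratio scaling and after quantile normalization, 1 was higher and 0 were lower at a threshold of 1, and the median was 0.47 in place of 0.32 with a mean FPKM of at least 5, where fewer genes are tested. Between the control libraries the median of -1.81 was -1.99 with a pseudocount of 0.1, -1.24 with a pseudocount of 5, -1.97 after rescaling to the same sum with or without the salivary genes, -2.18 after median ratio scaling and -2.11 after quantile normalization; the counts there stayed within 1.5 times. The cause of the other shifts was not tested. Of 192 single-gene values per comparison, 8 crossed 0.3 with 6-OHDA, 17 with SP and 6 between the control libraries. Values below 1 FPKM rest on few fragments, so those of Des, Kcnma1, Kcnmb1 and Myocd in the colonies carry little precision.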
